A study of Mus musculus with 23 samples.

Results

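The 44 genes described here encode the proteins that choose which exons enter a messenger RNA: SR proteins, Tra2 proteins, heterogeneous nuclear ribonucleoproteins (hnRNPs), PTB, FET, muscleblind and paraspeckle proteins, and RNA-binding motif and U1-associated regulators. They were taken by gene symbol from a fixed list that was written with earlier results of these data known. Its counts of called genes are therefore a description and not a test of the list. All 44 were found among the 35976 genes of the count table, and all 44 passed the filter on low counts that left 16121 genes to test. They were measured in bulk RNA of microglia, the resident macrophages of the brain, purified from striata of male mice of the C57BL/6J strain, 9 weeks old at the start. The Abstinence group (n = 7 libraries) had self-administered methamphetamine at 0.05 mg/kg per infusion in 2-hr sessions on 15 days and was then kept drug-free in home cages for 21 days. The Maintenance group (n = 8) had the same methamphetamine sessions and was collected right after the last of them. The Saline group (n = 8) self-administered saline on the same schedule and was also collected after its last session. No library comes from saline mice that passed through the 21 days, so Abstinence differs from Saline in age and time in the home cage as well as in drug exposure. Abstinence differs from Maintenance in age, time in the home cage and time since the last session, which cannot be told apart. The labels do not say that each library is a separate animal, so p-values measure the spread between these libraries, which may in part be technical.

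SR proteins bind enhancer sequences in exons through RNA recognition motifs and use a domain rich in arginine and serine to draw in the spliceosome. Many hnRNPs and the PTB proteins bind silencer or intronic sequences and often work against exon inclusion, so that the balance between both sides sets the outcome for many exons. Genes of these families commonly regulate their own level by splicing in a premature stop codon or retaining an intron, which sends the RNA to nonsense-mediated decay. In the GENCODE M21 annotation of GRCm38, 28 of the 44 genes (63.6%) have a transcript marked for nonsense-mediated decay, against 4358 of the 20476 protein-coding genes of the table (21.3%). A retained-intron transcript is annotated for 34 of the 44 (77.3%), against 43.5% of the protein-coding genes. Neither share was matched for the number of transcripts annotated per gene, which was 34 for Hnrnpk and 1 for Hnrnpa0. The counts are per gene and do not separate these isoforms, so a higher count may hold productive or unproductive RNA.

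Total counts were 54.97 to 94.83 M per library (median 75.39 M, where M is 1e+06 counts). The microglial markers were present throughout: 12 of 12 were detected in every library, with a summed level of 57647 to 66790 CPM (counts per 1e+06 counts of the library, scaled with TMM factors) in Abstinence, 45245 to 67010 in Maintenance and 54309 to 69317 in Saline. Maintenance replicates 6 and 7 had the fewest genes detected (12459 and 12740). Maintenance replicate 8 held 44456 CPM of choroid plexus and ependymal markers, against at most 103 CPM in any other library. Without Maintenance replicates 6, 7 and 8 the count of these splicing genes that changed between Maintenance and Saline was 11 of 44. It included all 10 of those that changed with every library in. Over all 16706 genes tested in that fit, 0.509% were called. Oligodendrocyte markers (12 of 12 detected everywhere) summed to a median of 3628 CPM in Abstinence (range 1860 to 4801), 3951 CPM in Maintenance (1332 to 5414) and 1761 CPM in Saline (655 to 5485). Neutrophil markers summed to a median of 50.7 CPM in Abstinence (10.2 to 150), 79.3 CPM in Maintenance (4.26 to 172) and 126 CPM in Saline (44.9 to 860). Of these 10 markers, Ly6g was at 0 in 18 of the 23 libraries and Elane in 17, and at most 5 were detected in any Abstinence library, 7 in Maintenance and 10 in Saline. Erythrocyte markers (5 listed, Alas2 at 0 in 1 library) summed to a median of 428 CPM in Abstinence (81.5 to 766), 109 CPM in Maintenance (59.98 to 503) and 474 CPM in Saline (161 to 691). Border macrophage markers (7 listed, Lyve1 at 0 in 1 library) summed to a median of 242 CPM in Abstinence (194 to 258), 283 CPM in Maintenance (209.8 to 417) and 215 CPM in Saline (189.9 to 365). The part of erythrocyte and border macrophage RNA in the results was not tested.

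The levels of the 44 genes spanned a wide range. Per kilobase of annotated exon, the highest in Saline was Hnrnpk (212 ± 11.1 CPM per kb, SD, n = 8), a poly(C)-binding hnRNP. Hnrnpf, an hnRNP that binds runs of G, followed with 73.9 ± 4.11 CPM per kb and Mbnl1, a muscleblind protein that regulates developmental exon choice, with 70.0 ± 3.89 CPM per kb. Their difference was smaller than the SD of Hnrnpf but not that of Mbnl1. The lowest were the FET protein gene Taf15 (0.972 ± 0.302 CPM per kb) and Ptbp2, the PTB paralog best known from neurons (0.685 ± 0.341 CPM per kb), which also overlapped within their spread. Exon length was the union over all annotated transcripts, retained introns included, which lowers the value of genes with such transcripts. Even the least covered gene had 140 counts in its lowest library (Taf15), so all 44 were measurable everywhere. The summed level of all 44 was 6683 to 7563 CPM in Abstinence, 5926 to 7640 CPM in Maintenance and 6766 to 7673 CPM in Saline, ranges that overlap. The median coefficient of variation of a gene within a group was 14.4% in Abstinence, 15.5% in Maintenance and 11.9% in Saline.

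After the last methamphetamine session, 10 of the 44 genes had changed against Saline at an adjusted p under 0.05 by edgeR's quasi-likelihood test with Benjamini-Hochberg adjustment over all 16121 genes, the test and threshold used throughout. Over all genes tested, 0.707% were called in this comparison. The 6 that rose were Tra2a, Tra2b, Srsf7, Acin1, Rbm5 and Rbm39 (0.335% of all genes rose), and the 4 that fell were Srsf5, Ewsr1, Ptbp1 and Hnrnpk (0.372% fell). At an unadjusted p under 0.05 stood 25 of the 44, 18 higher and 7 lower, against 11.8% of all genes. The median log2 fold change of the 44 was 0.08, with 25 positive and 19 negative values, beside a median of 0.0052 over all genes, so the list as a whole was not shifted by much while its members moved in both directions. The groups did not overlap for 4 genes that rose, against 0.167% of all genes, and for 2 that fell, against 0.248%. In bulk RNA, fewer cells of a type and less RNA per cell cannot be told apart.

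**Figure D1:**
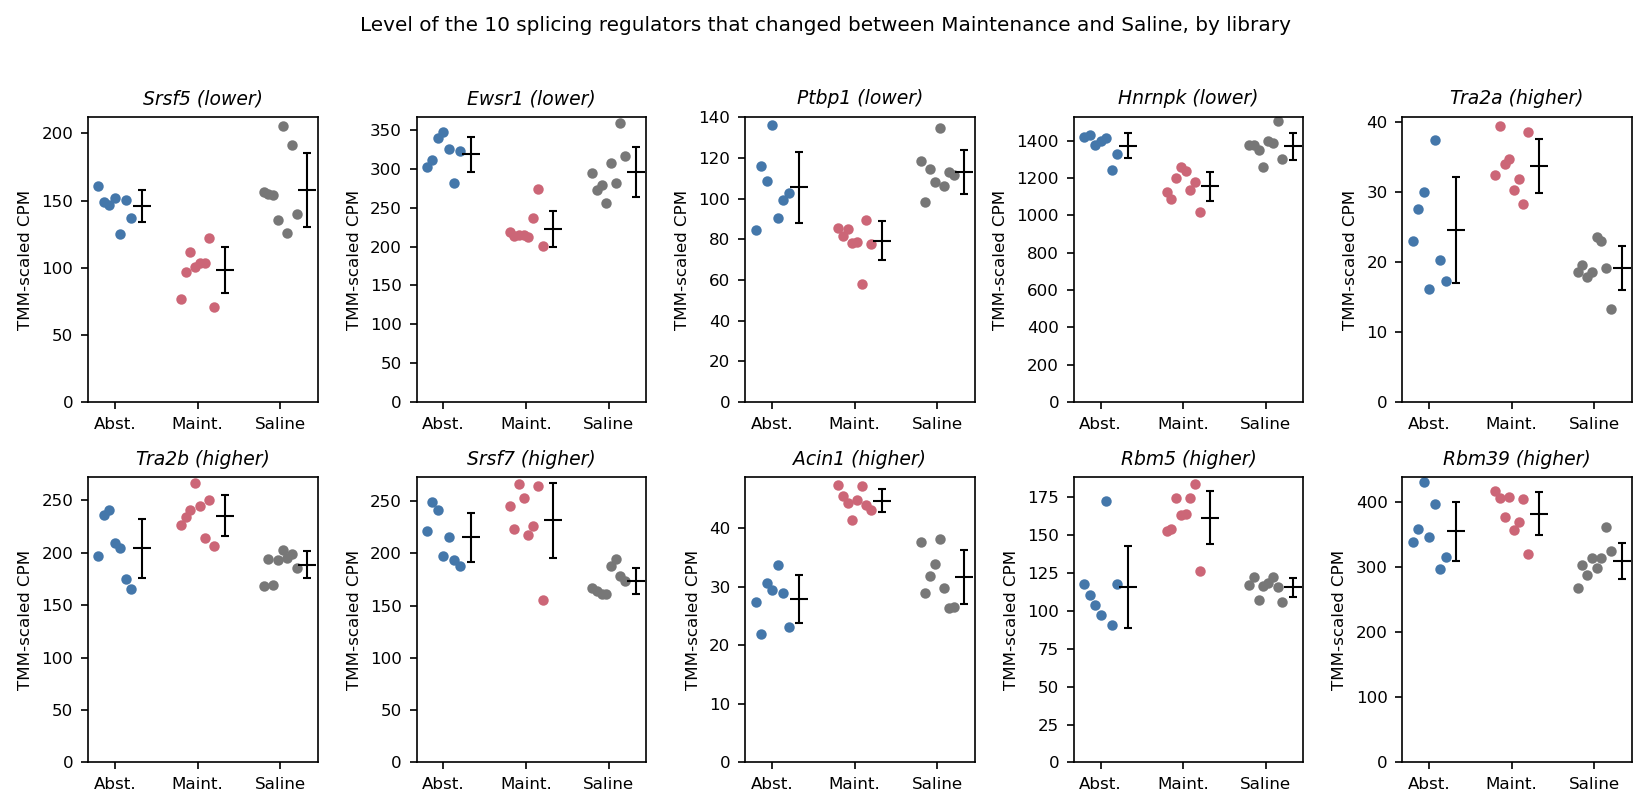
Level of the 10 splicing regulators that changed between Maintenance and Saline, in TMM-scaled CPM on axes that start at 0, with 1 point per library in Abstinence, Maintenance and Saline and the mean ± SD beside each group. Srsf5 and Ptbp1 lie lower in all 8 Maintenance libraries than in any Saline library, and Tra2a, Tra2b, Acin1 and Rbm5 lie higher; the ranges of the other 4 genes touch or overlap.

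The promoters of 6 of the called genes are printed to show what stands upstream of genes that moved together: Srsf5, Ptbp1 and Ewsr1, which fell, and Tra2a, Tra2b and Acin1, which rose. Each runs from 250 bases before to 50 bases after a RefSeq start in GRCm38.p6, 5′ to 3′ on the gene's strand. The start listed closest to the 5′ end of the RefSeq gene was taken. It lay 196 bases from that end for Tra2a, 11 for Ewsr1, 4 for Srsf5 and 0 for Ptbp1, Tra2b and Acin1. The promoters lie at chr12:80945249-80945548 (plus strand) for Srsf5, chr10:79854182-79854481 (plus) for Ptbp1, chr11:5099047-5099346 (minus) for Ewsr1, chr6:49264003-49264302 (minus) for Tra2a, chr16:22265956-22266255 (minus) for Tra2b and chr14:54686916-54687215 (minus) for Acin1. Capitals mark matches on either strand to the motifs searched: the CCAAT box (CCAAT), the E-box (CACGTG), the cAMP response element (TGACGTCA) and heat shock element pairs (GAANNTTC and TTCNNGAA).
Srsf5: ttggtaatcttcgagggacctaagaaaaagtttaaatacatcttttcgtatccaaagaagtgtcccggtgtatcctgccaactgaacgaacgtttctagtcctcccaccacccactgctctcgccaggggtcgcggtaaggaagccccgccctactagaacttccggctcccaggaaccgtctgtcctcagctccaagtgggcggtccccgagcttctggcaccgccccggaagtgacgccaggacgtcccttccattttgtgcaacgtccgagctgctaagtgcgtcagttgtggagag
Ptbp1: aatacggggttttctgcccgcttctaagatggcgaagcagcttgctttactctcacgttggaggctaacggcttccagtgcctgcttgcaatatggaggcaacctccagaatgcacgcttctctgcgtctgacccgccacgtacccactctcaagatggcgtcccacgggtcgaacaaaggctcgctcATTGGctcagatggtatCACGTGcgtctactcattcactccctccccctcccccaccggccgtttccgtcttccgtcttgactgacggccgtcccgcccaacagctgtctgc
Ewsr1: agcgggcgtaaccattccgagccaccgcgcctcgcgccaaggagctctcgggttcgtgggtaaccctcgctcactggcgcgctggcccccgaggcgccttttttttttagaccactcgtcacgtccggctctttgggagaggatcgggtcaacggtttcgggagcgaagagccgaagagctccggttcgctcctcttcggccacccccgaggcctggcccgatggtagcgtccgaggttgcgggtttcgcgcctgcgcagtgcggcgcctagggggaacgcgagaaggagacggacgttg
Tra2a: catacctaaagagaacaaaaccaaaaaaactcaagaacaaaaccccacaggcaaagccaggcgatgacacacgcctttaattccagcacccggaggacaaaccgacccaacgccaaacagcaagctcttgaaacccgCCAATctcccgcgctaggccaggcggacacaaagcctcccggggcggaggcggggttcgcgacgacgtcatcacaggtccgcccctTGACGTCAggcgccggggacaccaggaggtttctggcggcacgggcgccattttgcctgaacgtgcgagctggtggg
Tra2b: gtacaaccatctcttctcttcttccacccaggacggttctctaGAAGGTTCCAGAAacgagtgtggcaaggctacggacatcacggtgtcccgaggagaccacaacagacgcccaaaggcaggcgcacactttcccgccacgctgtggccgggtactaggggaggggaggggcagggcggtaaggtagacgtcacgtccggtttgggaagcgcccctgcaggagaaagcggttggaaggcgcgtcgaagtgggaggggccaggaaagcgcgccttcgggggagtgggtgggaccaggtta
Acin1: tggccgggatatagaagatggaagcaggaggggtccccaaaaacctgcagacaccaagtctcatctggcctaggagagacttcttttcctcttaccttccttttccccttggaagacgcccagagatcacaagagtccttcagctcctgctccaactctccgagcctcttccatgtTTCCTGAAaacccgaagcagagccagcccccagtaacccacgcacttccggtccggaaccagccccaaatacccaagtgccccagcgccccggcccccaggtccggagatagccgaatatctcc
Neither Srsf5 nor Ewsr1 held any of these letters in the window. Ptbp1 held an E-box, which 7.24% of 27025 RefSeq promoters of the same length hold, and a CCAAT box on the other strand. Tra2a held the only cAMP response element among the 42 genes with a RefSeq promoter (1.88% of all promoters) and a CCAAT box. Tra2b held overlapping heat shock pairs that together make a heat shock element of 3 units, a form added to the search after the matches were seen. It stands in 2 of the 42 (Tra2b and Hnrnpa2b1) and in 0.529% of all promoters. Acin1 held TTCNNGAA, found in 4 of the 42 and in 8.40% of all promoters, and GAANNTTC was likewise in 4 of the 42 and in 7.95%. The CCAAT box was in 25 of the 42 (59.5%), against 37.9% of all promoters, and the E-box in 6 of the 42. The 42 promoters had a median GC content of 60.0%, against 52.7% over all promoters. Some of the 42 lay far from the 5′ end of the RefSeq gene, as for Luc7l2 (4389 bases), Rbm25 (3502) and Hnrnpl (2344). These matches describe letters only.

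Among the 10 SR protein genes, 1 rose and 1 fell between Maintenance and Saline, and the other 8 did not pass. Over all genes tested, 0.335% rose and 0.372% fell. Srsf5 (chromosome 12, 80945504 to 80950507), an SR protein that binds exonic enhancers, had 71.0 to 122 CPM (median 102) in Maintenance and 126 to 206 CPM (median 155) in Saline, with no overlap. Its level fell, with a log2 fold change of -0.68 ± 0.11 (adjusted p = 0.00103). Abstinence had 125 to 161 CPM (median 149), above every Maintenance library (log2 fold change of Abstinence over Maintenance 0.57 ± 0.11, adjusted p = 0.00773) and within the Saline range (Abstinence over Saline -0.11 ± 0.11, adjusted p = 0.999). This was the largest fall of the 44 in Maintenance against Saline.

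Srsf7 (chromosome 17, 80200080 to 80207307), an SR protein with a zinc knuckle that also acts in polyadenylation and RNA export, went the other way. It had 156 to 266 CPM (median 236) in Maintenance and 161 to 195 CPM (median 171) in Saline, and 7 of the 8 Maintenance libraries lay above the Saline median. Srsf7 rose, with a log2 fold change of 0.42 ± 0.09 (adjusted p = 0.0198). The exception was Maintenance replicate 8, the library rich in choroid plexus markers, which was lowest. The call was lost without Saline replicate 3 (adjusted p = 0.0522). In Abstinence Srsf7 had 188 to 249.5 CPM (median 216), with all 7 libraries over the median of Saline, but neither the difference from Saline (0.31 ± 0.09, adjusted p = 0.494) nor that from Maintenance (-0.10 ± 0.09, adjusted p = 0.799) passed.

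The remaining SR genes gave log2 fold changes of Maintenance over Saline between -0.15 (Srsf2) and 0.47 (Srsf1). Srsf1, the founding SR protein, had 8.85 to 14.6 CPM in Abstinence, 11.4 to 31.0 CPM in Maintenance and 10.4 to 17.9 CPM in Saline. Its widest difference was Abstinence over Maintenance (-0.73 ± 0.19), with an adjusted p of 0.0645. With 1 library left out, that adjusted p was under 0.05 only without Maintenance replicate 3, 4 or 8 (0.0323, 0.0442 or 0.0482). It was also under 0.05 with DESeq2 (0.0108) and with a floor of 1 CPM (0.0415). Srsf10, which represses splicing when dephosphorylated, and Srsf3, a small SR protein that regulates its own exon choice, were at 0.37 ± 0.11 (adjusted p = 0.122) and 0.26 ± 0.08 (adjusted p = 0.139) in Maintenance over Saline. With 1 library left out, these adjusted p-values were under 0.05 only without Maintenance replicate 7 (0.0382 for Srsf10 and 0.0297 for Srsf3). DESeq2 gave 0.0284 for Srsf10 and 0.032 for Srsf3, and limma voom gave 0.0262 and 0.00467. Srsf3 was also under 0.05 without Maintenance replicates 6, 7 and 8 (0.0161). With the 17 libraries of a second deposited table Srsf3 was at 0.0344. The paralogs closest to Srsf5 by family, Srsf4 and Srsf6, were at -0.04 ± 0.12 and 0.04 ± 0.09 in the same comparison. Per kilobase, the ratio of Srsf5 to Srsf6 was 1.09 to 1.92 in Abstinence, 0.771 to 1.62 in Maintenance and 1.46 to 2.22 in Saline, so Maintenance and Saline shared a part of the range.

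Both Tra2 genes, which encode activators that bind purine-rich exon sequences containing GAA, rose in Maintenance against Saline. Tra2a (chromosome 6, 49243924 to 49264033) had 28.3 to 39.4 CPM (median 33.2) in Maintenance and 13.3 to 23.5 CPM (median 18.8) in Saline. The groups did not overlap, and the rise of 0.81 ± 0.15 in log2 units (adjusted p = 0.00637), 1.76-fold, was the largest of the 44. In Abstinence Tra2a ranged from 16.1 to 37.4 CPM (median 23.03), which overlapped both other groups; the log2 fold changes were -0.46 ± 0.15 over Maintenance (adjusted p = 0.175) and 0.36 ± 0.15 over Saline (adjusted p = 0.999). With 1 library left out, Abstinence over Maintenance passed only without Abstinence replicate 5, the highest of its group (-0.59, adjusted p = 0.0455). It also passed with limma voom (-0.61, adjusted p = 0.0199).

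Tra2b (chromosome 16, 22244549 to 22266005) had 206 to 267 CPM (median 237) in Maintenance and 168 to 203 CPM (median 194) in Saline, again without overlap. It rose, with a log2 fold change of 0.32 ± 0.07 (adjusted p = 0.0359). This call was near the threshold: it was lost in turn without Maintenance replicate 2, 3, 4 or 7 or without Saline replicate 1, 2, 3 or 4, with adjusted p-values of 0.0513 to 0.0895 and log2 fold changes of 0.30 to 0.33. Upper-quartile factors, no filter on low counts and 1 surrogate variable also ended it, with adjusted p-values of 0.0653, 0.058 and 0.0637. Abstinence had 165 to 241 CPM (median 204), with -0.21 ± 0.08 over Maintenance (adjusted p = 0.244) and 0.11 ± 0.08 over Saline (adjusted p = 0.999). Per kilobase, Tra2a stood at 0.102 to 0.243 of Tra2b in Abstinence, 0.151 to 0.249 in Maintenance and 0.0954 to 0.156 in Saline.

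**Figure D2:**
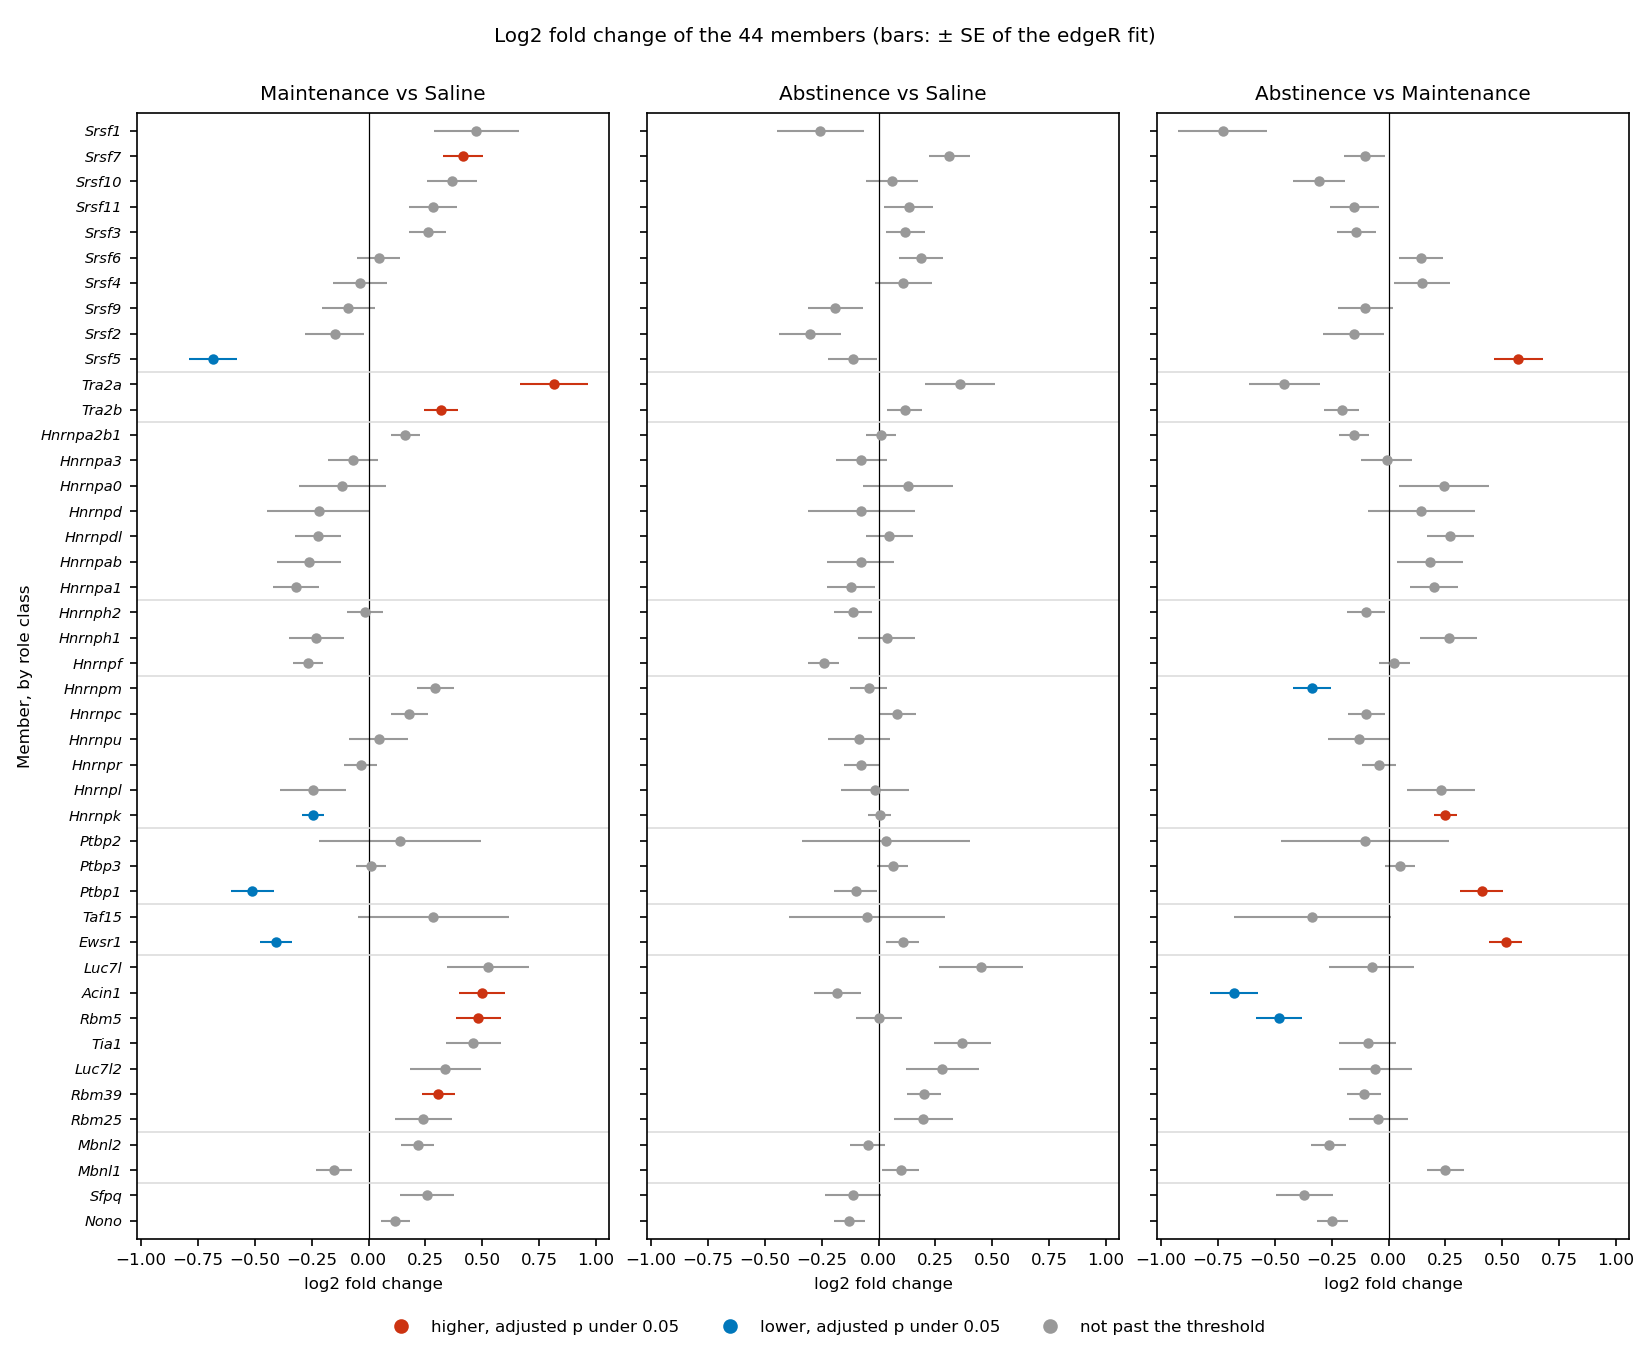
Log2 fold change (horizontal axis) of the 44 splicing regulators (vertical axis, in classes separated by lines) for Maintenance against Saline, Abstinence against Saline and Abstinence against Maintenance, with ± SE bars; red points rose, blue points fell and grey points did not pass an adjusted p under 0.05. The first panel holds 6 red and 4 blue points, the second none, and the third 4 red and 3 blue.

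Of the 7 RNA-binding motif and U1-associated regulators, 3 rose in Maintenance against Saline, none fell, and all 7 fold changes were positive (median log2 fold change 0.46). Over all genes tested, 0.335% rose and 50.6% of fold changes were positive. The class was not tested as a set. Acin1 (chromosome 14, 54642161 to 54686931) encodes acinus, a scaffold of the ASAP complex at the exon junction complex. It had 41.5 to 47.5 CPM (median 44.6) in Maintenance, the lowest coefficient of variation of the 44 in that group (4.47%), and 26.4 to 38.2 CPM (median 30.8) in Saline. No library overlapped, and Acin1 rose, with a log2 fold change of 0.50 ± 0.10 (adjusted p = 0.0152). In Abstinence, at 21.9 to 33.8 CPM (median 28.9), it lay below every Maintenance library (Abstinence over Maintenance -0.68 ± 0.10, adjusted p = 0.000608) and overlapped Saline (-0.18 ± 0.10, adjusted p = 0.999). With the 17 libraries of the second deposited table the adjusted p of Maintenance over Saline was 0.0538. The gene 1700123O20Rik overlaps the 5′ end of Acin1, from 54686171 to 54686965, and its count was 140% of that of Acin1. Without stated strand, reads in that stretch cannot be told apart. The gene 1700123O20Rik was at 0.01 in Maintenance over Saline (adjusted p = 0.991) and at 0.24 in Abstinence over Maintenance (adjusted p = 0.401).

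Rbm5 (chromosome 9, 107740371 to 107770996), which takes part in recognition of the splice sites and regulates apoptosis genes such as FAS in human cells, had 126 to 184 CPM (median 164) in Maintenance and 106 to 123 CPM (median 117) in Saline, with no overlap. It rose, with a log2 fold change of 0.48 ± 0.10 (adjusted p = 0.0162). The 7 Abstinence libraries held 90.4 to 173 CPM (median 111), and 6 of them lay below the Maintenance median. Rbm5 was lower in Abstinence than in Maintenance by a log2 fold change of -0.48 ± 0.10 (adjusted p = 0.0152) and at 0.00 ± 0.10 over Saline (adjusted p = 0.999). With only Abstinence and Maintenance in the fit the adjusted p was 0.0868, and with 1 surrogate variable it was 0.0917.

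Rbm39 (chromosome 2, 156147239 to 156180238), a U2AF-related coactivator, had 319.7 to 417 CPM (median 391) in Maintenance and 269 to 362 CPM (median 308) in Saline, ranges that overlapped. Its rise of 0.31 ± 0.07 in log2 units (adjusted p = 0.0467) was the weakest of the 10 calls. It was lost without any 1 of 15 libraries (Maintenance 1, 2, 3, 4, 6 or 7, Abstinence 1, 2 or 4, Saline 1 to 6), with adjusted p-values of 0.0507 to 0.107, and under 8 of the 13 other settings. Abstinence had 297 to 430.1 CPM (median 347), at -0.11 ± 0.08 over Maintenance (adjusted p = 0.708) and 0.20 ± 0.08 over Saline (adjusted p = 0.835). The other 4 of this class lay between 0.24 (Rbm25) and 0.52 (Luc7l) in Maintenance over Saline. Tia1, which helps U1 recognise weak splice donors and also forms stress granules, was at 0.46 ± 0.12 (adjusted p = 0.0736). With 1 library left out, its adjusted p was under 0.05 only without Maintenance replicate 5 or 7 (0.0352 or 0.0346). It was 0.00927 with DESeq2, 0.0133 with limma voom and 0.0373 with a floor of 1 CPM. Luc7l, a U1-associated protein, was at 0.52 ± 0.18 (adjusted p = 0.178). Its adjusted p was 0.0267 with limma voom and 0.0296 with the 17 libraries of the second table.

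Ptbp1 alone moved among the 3 PTB family genes. It encodes the polypyrimidine tract binding protein of most non-neuronal cells, a repressor of many alternative exons. Ptbp1 (chromosome 10, 79854427 to 79864771) had 58.3 to 89.6 CPM (median 80.2) in Maintenance and 98.1 to 135 CPM (median 112) in Saline. The groups did not overlap, and Ptbp1 fell, with a log2 fold change of -0.51 ± 0.09 (adjusted p = 0.00544). In Abstinence it had 84.5 to 136 CPM (median 103), with all 7 libraries above the Maintenance median, 0.41 ± 0.10 over Maintenance (adjusted p = 0.033) and -0.10 ± 0.10 over Saline (adjusted p = 0.999). The difference between Abstinence and Maintenance was lost without any 1 of 7 libraries (Maintenance 4 or 6, Abstinence 2, 3, 4, 6 or 7), with adjusted p-values of 0.0531 to 0.106. It was also lost without Maintenance replicates 6, 7 and 8 (0.36, adjusted p = 0.0638), with only the compared groups (adjusted p = 0.124), with 1 surrogate variable (adjusted p = 0.149) and with the second table's libraries (adjusted p = 0.0697).

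Ptbp3, the paralog of blood cells, was at 0.01 ± 0.06 in Maintenance over Saline (adjusted p = 0.978) and at 0.05 ± 0.07 in Abstinence over Maintenance (adjusted p = 0.899). Ptbp2 was at 0.14 ± 0.36 and -0.11 ± 0.37 in those comparisons, with errors too wide to place it. The ratio of Ptbp1 to Ptbp3 per kilobase was 1.09 to 1.67 in Abstinence, 0.721 to 1.196 in Maintenance and 1.25 to 1.94 in Saline. Maintenance and Saline did not overlap in this ratio, but they did not overlap in Ptbp1 alone either, so the ratio is no separate evidence. It is a description and was not tested.

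Ewsr1 (chromosome 11, 5069689 to 5099266), a FET protein that couples transcription to splicing, had 200.3 to 274 CPM (median 215) in Maintenance and 257 to 359 CPM (median 288) in Saline, with a small overlap. All 8 Maintenance libraries lay below the Saline median, and Ewsr1 fell, with a log2 fold change of -0.41 ± 0.07 (adjusted p = 0.00285). In Abstinence Ewsr1 had 282 to 347 CPM (median 324), above every Maintenance library. Its rise of 0.51 ± 0.07 over Maintenance (adjusted p = 0.000197) had the smallest p of the 44 in any comparison, and it was at 0.11 ± 0.07 over Saline (adjusted p = 0.999). The other FET gene on the list, Taf15, was low and at 0.29 ± 0.33 in Maintenance over Saline (adjusted p = 0.846).

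Among the 6 other hnRNP genes, Hnrnpk fell in Maintenance and Hnrnpm differed between Abstinence and Maintenance. Hnrnpk (chromosome 13, 58391142 to 58403343) had 1019.9 to 1259.8 CPM (median 1155) in Maintenance and 1259.6 to 1502 CPM (median 1376) in Saline, so the ranges touched at their ends. It fell, with a log2 fold change of -0.24 ± 0.05 (adjusted p = 0.0167), a small change with the smallest error of the 10. Abstinence had 1242 to 1431 CPM (median 1396), at 0.25 ± 0.05 over Maintenance (adjusted p = 0.0127) and 0.01 ± 0.05 over Saline (adjusted p = 0.999). With only the compared groups in the fit, the adjusted p was 0.0531 for Maintenance over Saline and 0.0634 for Abstinence over Maintenance, and with the 17 libraries of the second deposited table it was 0.0826 and 0.0579.

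Hnrnpm (chromosome 17, 33646233 to 33686860), which binds GU-rich intronic sequences and is known in macrophages for holding back splicing of immune transcripts, had 144 to 206 CPM (median 177) in Abstinence, 192 to 290.0 CPM (median 222) in Maintenance and 158 to 201 CPM (median 182) in Saline. It was lower in Abstinence than in Maintenance (-0.34 ± 0.08, adjusted p = 0.0426), with all 7 Abstinence libraries below the Maintenance median and overlapping ranges. In Maintenance over Saline it was at 0.29 ± 0.08 (adjusted p = 0.0825). With 1 library left out, that adjusted p was under 0.05 only without Maintenance replicate 8 (0.0461). It was 0.0156 with DESeq2, 0.0239 with limma voom and 0.0486 with a floor of 1 CPM. The call in Abstinence over Maintenance was lost without any 1 of 8 libraries (Maintenance 4, 6 or 7, Abstinence 2, 3, 4, 6 or 7), with adjusted p-values of 0.0501 to 0.119, and in 6 of the 13 other settings, with adjusted p-values of 0.053 to 0.214. The remaining members of this class, Hnrnpc, Hnrnpl, Hnrnpr and Hnrnpu, lay between -0.24 (Hnrnpl) and 0.18 (Hnrnpc) in Maintenance over Saline.

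None of the 7 genes of the hnRNP A/B and D family passed in any comparison, and 6 of the 7 fold changes of Maintenance over Saline were negative (median -0.22). Over all genes 50.6% of these fold changes were positive, and this class was not tested as a set. Hnrnpa1, the best known antagonist of SR proteins, had the smallest p of them. It had 52.7 to 68.1 CPM (median 58.9) in Abstinence, 35.8 to 66.2 CPM (median 53.0) in Maintenance and 51.9 to 77.1 CPM (median 65.8) in Saline, with -0.32 ± 0.10 in Maintenance over Saline (adjusted p = 0.145). Hnrnpa2b1, the most abundant of them by CPM and a reader of exonic and microRNA sequence motifs, was the exception in sign, at 0.16 ± 0.06 (adjusted p = 0.272). In the F/H family none of 3 passed, and all 3 were negative. Hnrnpf had 176 to 201 CPM (median 191) in Abstinence, 152 to 219 CPM (median 194) in Maintenance and 201 to 238 CPM (median 228) in Saline. All 8 Maintenance and all 7 Abstinence libraries lay below the Saline median, at -0.27 ± 0.07 (adjusted p = 0.0531) and -0.24 ± 0.07 (adjusted p = 0.45) over Saline. With 1 library left out, the adjusted p of Maintenance over Saline was under 0.05 only without Maintenance replicate 1 or 5 or Saline replicate 8. It was then 0.0468, 0.0219 or 0.0319. With DESeq2 it was 0.00749, with limma voom 0.038 and with a floor of 1 CPM 0.0462.

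Neither muscleblind gene and neither paraspeckle gene passed. Mbnl2 had 169 to 235 CPM (median 206) in Abstinence, 211 to 276 CPM (median 248) in Maintenance and 187 to 238 CPM (median 208) in Saline. It was at 0.22 ± 0.07 in Maintenance over Saline (adjusted p = 0.175) and -0.26 ± 0.08 in Abstinence over Maintenance (adjusted p = 0.0962). With 1 library left out, the latter adjusted p was under 0.05 only without Maintenance replicate 8 (0.0356). It was 0.0224 with DESeq2. The more abundant Mbnl1 was at -0.15 ± 0.08 and 0.25 ± 0.08 in those comparisons (adjusted p = 0.467 and 0.149). Its adjusted p in Abstinence over Maintenance was under 0.05, with 1 library left out, only without Maintenance replicate 7 (0.0295). With limma voom it was 0.024. Sfpq, a paraspeckle protein that binds polypyrimidine tracts, had 24.1 to 42.4 CPM (median 29.3) in Abstinence, 32.3 to 48.4 CPM (median 38.7) in Maintenance and 25.7 to 41.9 CPM (median 32.7) in Saline, with 0.26 ± 0.12 in Maintenance over Saline (adjusted p = 0.379). Its partner Nono was at 0.12 ± 0.07 (adjusted p = 0.511), and at -0.25 ± 0.07 in Abstinence over Maintenance (adjusted p = 0.0732). With 1 library left out, the adjusted p of that Nono difference was under 0.05 only without Maintenance replicate 2, 7 or 8 (0.0486, 0.0247 or 0.0399). It was also under 0.05 with DESeq2 (0.00606), limma voom (0.0402) and a floor of 1 CPM (0.0322). The same held for the 17 libraries of the second table (0.0145) and without Maintenance replicates 6, 7 and 8 (0.022).

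After 21 days of abstinence, 0 of the 44 genes differed from Saline by edgeR's test, where 0.0186% of all genes were called, 0.0124% higher and 0.0062% lower. At an unadjusted p under 0.05 stood 7 of the 44, 5 higher and 2 lower, against 4.39% of all genes. DESeq2 called 0, against 0.223% of all genes with an adjusted p. The limma voom fit with quality weights, which called 1.29% of all genes, called 2: Srsf7, at 0.35 (adjusted p = 0.0113), and Hnrnpf, at -0.24 (adjusted p = 0.0105). With the 17 libraries of the second table (0.342% of all genes called), Srsf7 was at 0.36 (adjusted p = 0.0324). Hnrnpf was there at -0.27 (adjusted p = 0.0261). Without Maintenance replicates 6, 7 and 8 (0.0898% called), Hnrnpf was at -0.25 (adjusted p = 0.0476). The median log2 fold change of the 44 was 0.0080, against 0.0078 over all genes.

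Abstinence against Maintenance called 7 of the 44, 4 higher and 3 lower, where 0.949% of all genes were called, 0.397% higher and 0.552% lower. Ewsr1, Srsf5, Hnrnpk and Ptbp1 were higher in Abstinence and Acin1, Rbm5 and Hnrnpm lower. The median log2 fold change of the 44 was -0.09, against 0.0064 over all genes, and 18 of the 44 had an unadjusted p under 0.05, against 11% of all genes. All libraries of the groups stood apart for Srsf5 and Ewsr1 (higher in Abstinence) and Acin1 (lower), where 0.403% of all genes did not overlap. This comparison and that of Maintenance with Saline share the Maintenance libraries, so the opposite signs of a gene in them are not independent. Abstinence and Maintenance also differ in age and time in the home cage.

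**Figure D3:**
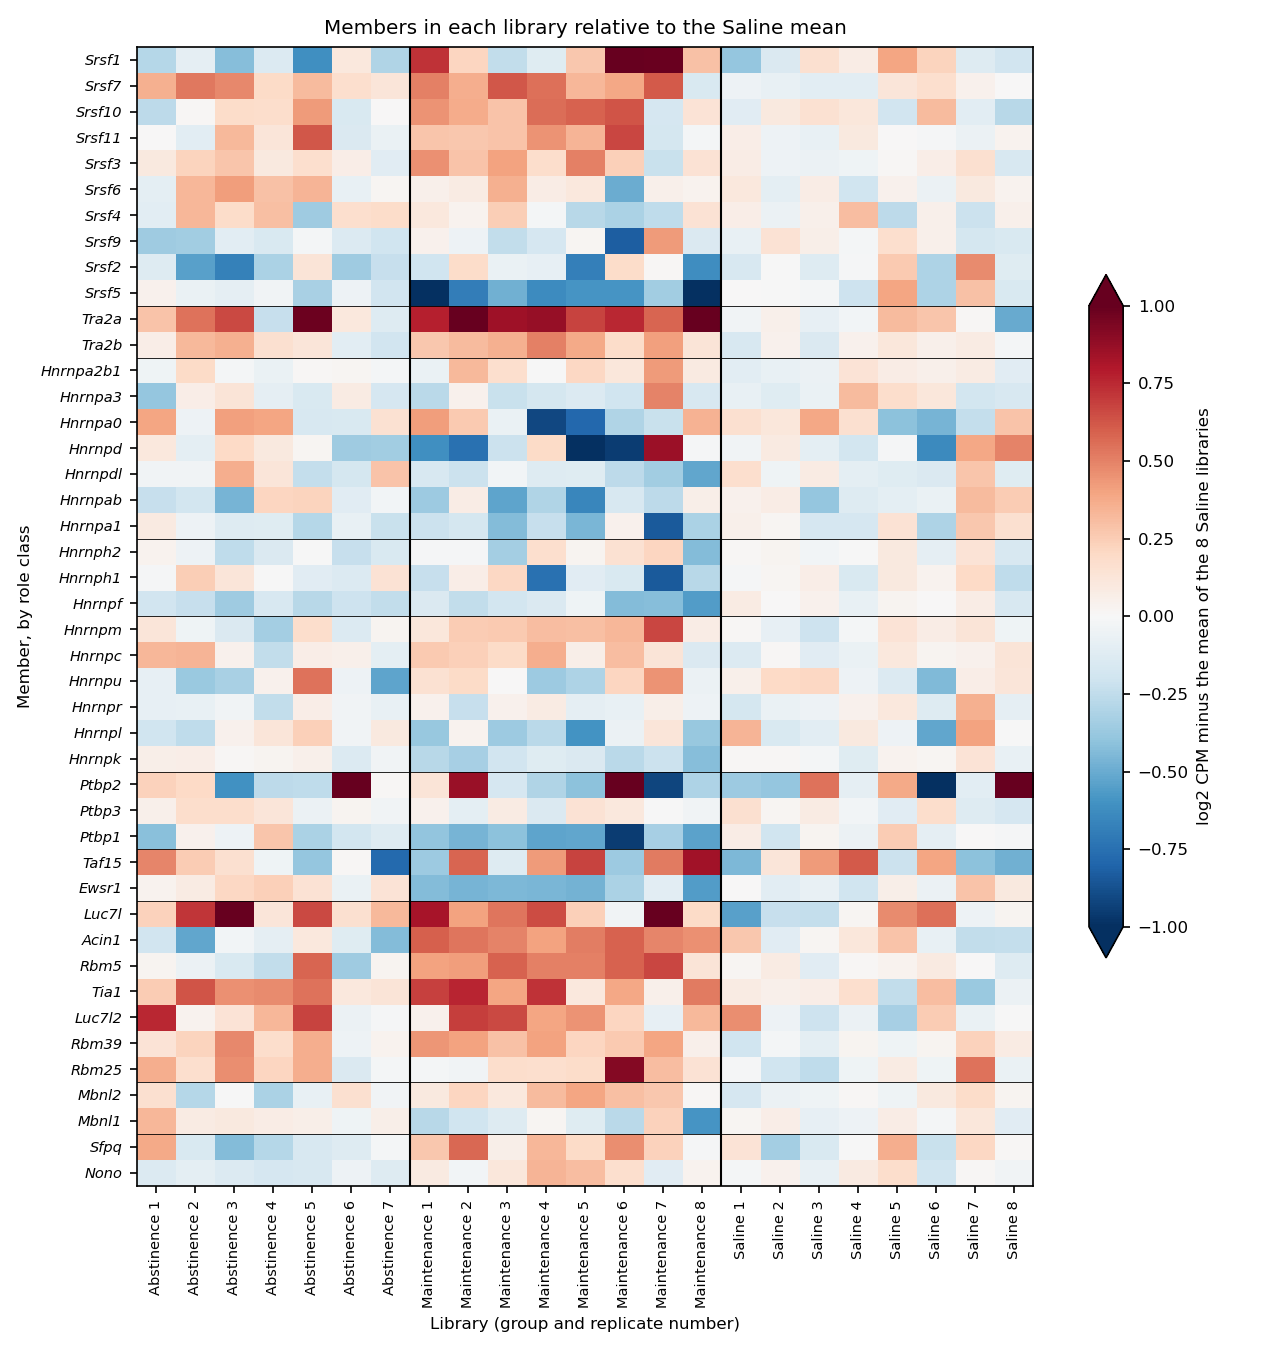
Log2 CPM of the 44 splicing regulators (down the page, in classes) in each of the 23 libraries (across: Abstinence, Maintenance, Saline by replicate number), as the difference from the mean of the 8 Saline libraries, with colours saturating at 1 and -1. Srsf5, Ptbp1 and Ewsr1 are blue and Tra2a and Acin1 red across the Maintenance columns, while most Abstinence columns are paler for these genes.

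Among the 7 Abstinence libraries, between 2 and 6 of the 6 genes that rose in Maintenance lay above the Saline median, and between 1 and 4 of the 4 genes that fell lay below it. Among the 8 Saline libraries themselves these numbers were 1 to 5 of the 6 and 0 to 4 of the 4. The median was taken from these Saline libraries, so their split about it was fixed and nothing is read from it. Abstinence replicate 5 had all 6 above, and Abstinence replicate 6 had all 4 below. In each of the 8 Maintenance libraries all 4 of the falling genes were under the median of Saline, which follows from how they were chosen.

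With the mean oligodendrocyte and neutrophil marker levels as covariates, 2 of the 10 genes passed in Maintenance against Saline: Srsf5 at -0.71 ± 0.15 (adjusted p = 0.0437) and Ewsr1 at -0.50 ± 0.10 (adjusted p = 0.0257). Over all genes that fit called 0.143%, against 0.707% without the covariates, and the SE of all 10 genes was wider in it. In that fit Tra2a was at 0.90 ± 0.22 (adjusted p = 0.124), Acin1 at 0.54 ± 0.15 (0.197), Ptbp1 at -0.49 ± 0.13 (0.199), Hnrnpk at -0.31 ± 0.07 (0.0779), Rbm5 at 0.43 ± 0.15 (0.341), Tra2b at 0.32 ± 0.11 (0.348) and Srsf7 at 0.37 ± 0.13 (0.353), with adjusted p in parentheses. Rbm39 was the one gene whose fold change moved by over 1.5 times, to 0.19 ± 0.10 (adjusted p = 0.631). In Abstinence against Maintenance, 6 of the 7 genes passed with these covariates, and Hnrnpm had an adjusted p of 0.0551. The part of other cells in the fold changes was not tested beyond this.

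**Figure D4:**
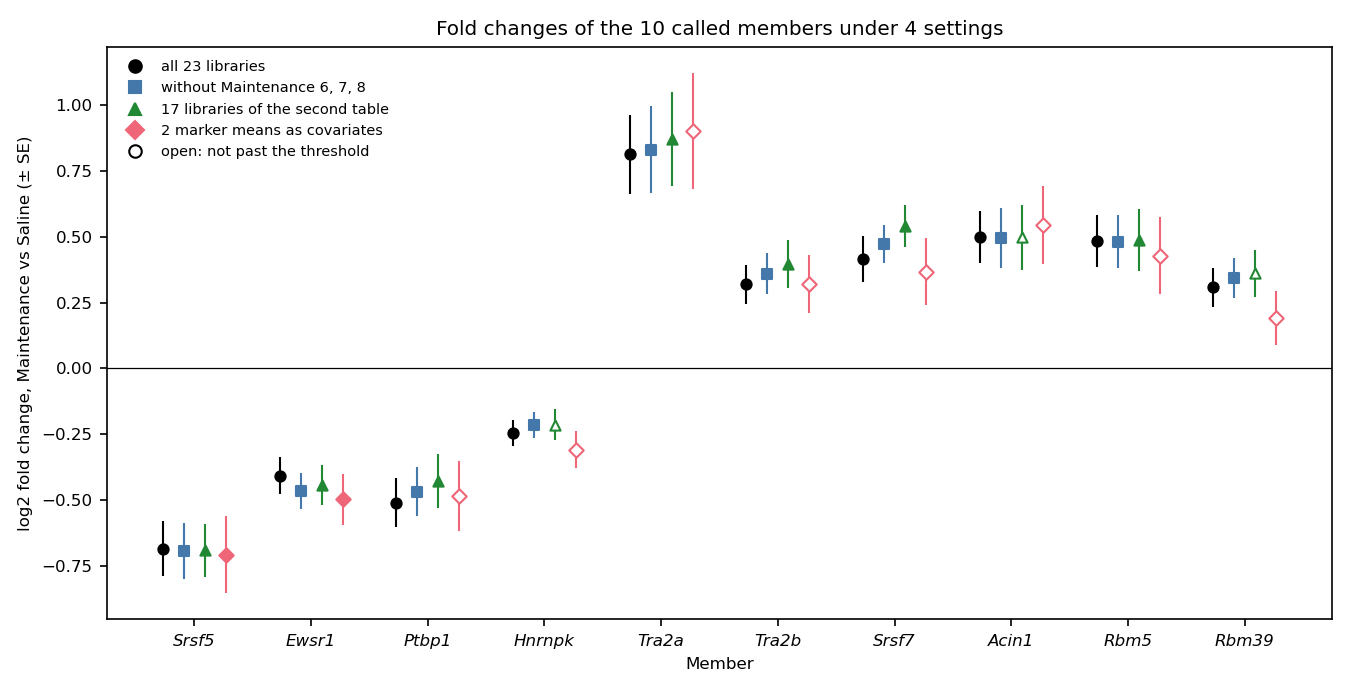
Log2 fold change of Maintenance over Saline (vertical axis, ± SE) for the 10 genes called in that comparison, with all 23 libraries, without Maintenance replicates 6, 7 and 8, with the 17 libraries of the second table, and with oligodendrocyte and neutrophil marker means as covariates; open symbols did not pass an adjusted p under 0.05. All 10 genes keep their sign in the 4 settings, and with the covariates Srsf5 and Ewsr1 are the filled symbols.

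Other genes of the splicing machinery were taken from lists set beside the 44 and read against the 0.707% of all genes called in Maintenance against Saline. None of 45 core spliceosome genes, 21 SR-related and speckle protein genes, 15 genes of the exon junction complex and nonsense-mediated decay, 20 genes of cleavage, polyadenylation and export, or 8 genes of arginine methylation and nuclear import passed there, and lists of these sizes give 0 or about 0 at that share, so nothing is read from it. Their median log2 fold changes were -0.0016, 0.14, 0.08, -0.09 and 0.03. Of 14 kinases and phosphatases of SR proteins, 1 rose: Srpk2, a kinase that phosphorylates SR proteins in the cytoplasm for import into the nucleus, at 63.8 ± 10.4 CPM in Maintenance and 47.8 ± 4.73 CPM in Saline (0.42 ± 0.10, adjusted p = 0.0496). Of 38 other splicing regulators tested, of 39 listed, none rose. Those that fell included the cold-induced RNA-binding protein genes Cirbp, at 32.6 ± 9.06 CPM in Maintenance and 75.4 ± 14.7 CPM in Saline (-1.21 ± 0.16, adjusted p = 7.37e-05), and Rbm3 (-0.72 ± 0.13, adjusted p = 0.00471).

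In Abstinence against Maintenance, where 0.949% of all genes were called, genes of these lists were called in both directions. Cirbp (1.36 ± 0.16, adjusted p = 2.37e-05) was higher in Abstinence, as was the SR protein kinase gene Srpk3 (0.75 ± 0.19, adjusted p = 0.0475). Lower in Abstinence were Bclaf1, an SR-related speckle protein (-0.69 ± 0.12, adjusted p = 0.00502), the splice-site regulator Rbm17 (-0.44 ± 0.10, adjusted p = 0.0224) and the mRNA export receptor gene Nxf1 (-0.44 ± 0.10, adjusted p = 0.0334). Bclaf1 averaged 67.6 ± 17.5 CPM in Abstinence and 108.8 ± 16.8 CPM in Maintenance (SD, n = 7 and 8). Of the 45 core spliceosome genes, 0 were called there by edgeR and 4 had an unadjusted p under 0.05, against 11% of all genes. Against Saline, Abstinence had 0 called in each of these lists.

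Counts of several of these genes are uncertain because other annotated genes hold near-identical sequence (at least 95% identity over at least 200 bases) or overlap them. Ewsr1 and Tra2b had 4 such genes each, Hnrnpk and Ptbp1 had 2, Srsf5 had 1, and Hnrnpa3 had the most with 28. Hnrnpm shared 1149 bases at 100% identity with March2, whose count was 2.75% of that of Hnrnpm. Overlapping genes with counts were small beside Ewsr1 (Rhbdd3, 2.99% of its count), Ptbp1 (E130317F20Rik, 1.97%, and Plppr3, 1.05%) and Hnrnpk (Rmi1, 1.61%). They were larger beside Srsf9 (Gatc, 205% of its count), Hnrnpdl (Enoph1, 150%), Srsf2 (Mfsd11, 83.2%), Hnrnpab (Phykpl, 42.8%) and Sfpq (Zmym1, 38.9%). None of these overlapping genes was called in any comparison.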

How the data were processed

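RNA of striatal microglia was sequenced as 23 libraries from a single-cell and low-input kit, per the labels' protocols. The submitters' processing notes name STAR 2.7.10a, StringTie 2.1.5, Trim Galore 0.6.7, cutadapt 1.18, DESeq2 1.38.3 and the build mm10 (GRCm38), without order or settings; the strand used in counting is not given in the sources used here. The deposited gene count table holds whole numbers for 35976 genes in 23 libraries. How the StringTie output became whole counts is not stated. A second deposited table, called normalized, holds the same counts for 17 of the libraries (7 Abstinence, 5 Maintenance, 5 Saline): 0 of 611592 values differed.

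From these counts, low genes were removed (filterByExpr on the groups, at least 10 counts and 15 in total), libraries were scaled with TMM factors, and 1 quasi-likelihood model of all 23, with no term but group, was fitted (R 4.3.3, edgeR 4.0.16, robust = TRUE). Groups follow the labels, and the comparisons were Maintenance with Saline, Abstinence with Saline and Abstinence with Maintenance. P-values were adjusted by Benjamini-Hochberg over the 16121 genes tested. Each SE is the absolute log2 fold change over the square root of F. The fit was tested on simulated data. The 44 genes, the lists set beside them and the motifs were chosen with earlier results of these data known. Named in full are the genes called in any comparison and, in each class with none, the gene of smallest p in Maintenance with Saline; up to 4 called genes are named per other list. Of 265 entries in those lists and the cell markers, 264 were found.

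Alternatives were upper-quartile and RLE factors, no filter, a floor of 1 CPM throughout at least 1 group, replicate number as a block, robust = FALSE, only the compared groups, DESeq2 1.42.0, limma voom with quality weights (limma 3.58.1), 1 surrogate variable (sva 3.50.0), marker means as covariates, libraries left out, and the libraries of the second table. Positions and isoforms come from GENCODE M21 and promoters from RefSeq. Total counts of 54.97 to 94.83 M (1e+06) put at least 140 counts behind each value of the 44 genes, so spread between libraries rather than counting limits precision. Protein sequences were not used here. One result of the lists set beside the 44 genes is not reported here.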

Additional observations from a re-analysis of the deposited data

Results flagged for a closer look

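In 132 groups of values (44 genes in 3 groups), 10 held a library set apart from the rest of its group by a wide gap, where chance at 1 in 20 gives 6.6. Of the 10, 3 were in Maintenance replicate 6 and 2 in Maintenance replicate 7, the libraries with the fewest genes detected.

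In Maintenance replicate 6, Ptbp1 was at 58.3 CPM, against 77.9 to 89.6 CPM in the other Maintenance libraries. Srsf6 was at 76.96 CPM there, against 111 to 139 CPM, and Rbm25, which regulates exons through the U1 particle, was at 132 CPM, against 68.6 to 87.1 CPM. Maintenance replicate 7 held 290.0 CPM of Hnrnpm, against 192 to 229.8 CPM, and 68.1 CPM of Hnrnpa3, against 39.9 to 49.6 CPM. Srsf7 was at 156 CPM in Maintenance replicate 8, the library with choroid plexus markers, against 218 to 266 CPM.

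In Abstinence, Rbm5 was at 173 CPM in replicate 5, against 90.4 to 118 CPM in the others. Hnrnpa2b1 was at 369.9 CPM in Abstinence replicate 2, against 309 to 327 CPM, and Mbnl1 at 1651 CPM in Abstinence replicate 1, against 1269 to 1399 CPM. In Saline, Rbm25 was at 102 CPM in replicate 7, against 59.0 to 74.1 CPM. What set these libraries apart was not tested.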

How the results depend on the processing

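The 10 genes called between Maintenance and Saline and the 7 called between Abstinence and Maintenance kept their direction in each of the 36 settings. In Maintenance against Saline, limma voom called 16 of the 44 (2.56% of all genes), DESeq2 15 (3.07% of genes with an adjusted p) and the fit with oligodendrocyte and neutrophil marker means as covariates 2 (0.143%), where the test in the text called 0.707%. Apart from fits with 1 library left out, the remaining settings called 7 to 13 (0.367% to 1.39% of all genes). With 1 library left out the count was 7 to 12 (0.263% to 1.23%). Srsf5 and Ewsr1 were called in every setting of that comparison.

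In Abstinence against Saline the count was 0 with each library left out (0.00611% to 0.0938% of all genes). It was 2 with limma voom (1.29%) and 2 with the libraries of the second table (0.342%). Without Maintenance replicates 6, 7 and 8 it was 1 (0.0898%). In Abstinence against Maintenance the count was 3 with only those groups in the fit (0.427%) and 11 with limma voom (2.11%). It was 4 with 1 surrogate variable (0.564%) and 5 to 10 with 1 library left out (0.543% to 1.66%). With the surrogate variable the median log2 fold change of the 44 in this comparison was -0.016. The cause of these shifts was not tested, apart from the fewer libraries in some fits.

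Replicate numbers are shared between groups, but libraries with the same number did not deviate together: their correlations were -0.03 to 0.09 for Maintenance and Saline, -0.12 to 0.08 for Abstinence and Saline and -0.07 to 0.02 for Abstinence and Maintenance. With replicate number as a block, 7, 0 and 6 of the 44 were called in those comparisons, against 0.428%, 0.0248% and 0.782% of all genes.

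Gene-level counts cannot show which isoform changed, and protein was not measured. At this depth all 44 genes were well covered, so limits come from the spread between libraries, widest for Ptbp2.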
